A study of Rattus norvegicus with 12 samples.

Results

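The net change in gene expression between cells given both HDAC1 and TGFB1 and cells given neither was measured in NRK-49F cells, a fibroblast line from normal rat kidney. The first group had taken up a plasmid encoding Flag-tagged human HDAC1 and was then held in medium with 0.5% serum and 2 ng/ml TGFB1 for 24 hours. The second had received the empty vector pcDNA3.1 and was held for the same 24 hours in 0.5% serum without the cytokine. Each group had 3 libraries, so 6 of the 12 libraries of the study were compared, and the groups are called HDAC1 plus TGFB1 and vector vehicle. All cells were transfected, all were in low serum, and all were of a single line. The other 6 libraries held TGFB1 with the empty vector and HDAC1 in vehicle, 3 each, and served for the spread of the replicates and for side-by-side values. Of 14601 genes tested, 10422 had a mean of at least 5 CPM (counts of a gene scaled to a common library total) over the 6 libraries. The largest changes were taken from these 10422, while gene lists count all their tested members, including some below that mean.

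TGFB1 is a secreted cytokine that binds a pair of kinase receptors at the cell surface, which phosphorylate SMAD2 and SMAD3. These join SMAD4 and enter the nucleus, and in kidney fibroblasts the pathway is known for turning on extracellular matrix, crosslinking and contractile genes. HDAC1 is a lysine deacetylase that removes acetyl groups from histones and other proteins, and works as the catalytic subunit of the SIN3, NuRD and CoREST complexes. In dividing cells it is best known for holding down inhibitors of cell cycle kinases.

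Library totals were 18661922 to 26570112 counts with HDAC1 plus TGFB1 and 18397093 to 27119357 counts in vector vehicle. Fibroblast genes were present throughout, though of 9 tested 2 were higher and 4 lower with HDAC1 plus TGFB1. The lower ones were Pdgfra (log2 fold change -1.03), S100a4 (-0.71), Pdgfrb (-0.68) and Ddr2 (-0.39). Vim, the main intermediate filament of mesenchymal cells, had 4574, 4532 and 4607 CPM with HDAC1 plus TGFB1, against 2743, 2651 and 2679.6 CPM in vector vehicle. All 7 endothelial markers tested were below 5 CPM on average, and of 12 tubule epithelium markers 3 were found by symbol and tested. One of these, the keratin Krt8, was abundant and higher: it had 1694, 1758 and 1684 CPM with HDAC1 plus TGFB1, against 1214, 1144 and 1246 CPM in vector vehicle (log2 fold change 0.51, edgeR adjusted p = 2.67e-06). Replicate 1 of vector vehicle stood apart from replicates 2 and 3 in transcripts of heart muscle and brain, tissues that the labels do not name. The summed level of 24 heart muscle genes was 173.9, 187.9 and 167.9 CPM with HDAC1 plus TGFB1, against 81.4, 423 and 450 CPM in vector vehicle. With TGFB1 and the empty vector the heart sums were 502.6, 478.5 and 608.7 CPM, and with HDAC1 in vehicle 264.2, 506.6 and 466 CPM. All 3 libraries with HDAC1 plus TGFB1 lay below every library of those groups, which leaving out replicate 1 does not address. For 18 brain genes the sums were 145.9, 142.5 and 144.6 CPM with HDAC1 plus TGFB1, against 177, 246 and 241 CPM in vector vehicle. Eno2 and Map2 made up most of these brain sums. Without them, a split chosen after the values were seen, the other 16 genes summed to 33.1, 36.8 and 33.9 CPM with HDAC1 plus TGFB1, against 15.9, 82.9 and 84.2 CPM in vector vehicle, so replicate 1 was then the lowest of the 6 libraries. Replicate 1 was the lowest vector vehicle library for 24 of 24 heart genes and 16 of 18 brain genes. With all libraries, 2 heart genes were higher and 2 lower with HDAC1 plus TGFB1, and without replicate 1 these counts were 1 and 21. For the brain genes 0 were higher and 3 lower with all libraries, and 0 and 16 without replicate 1. The part of these transcripts in other results was not tested. Results below are given with all 3 vector vehicle libraries, and list counts that changed by over 1.5 times without replicate 1 are given both ways.

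**Figure D1:**
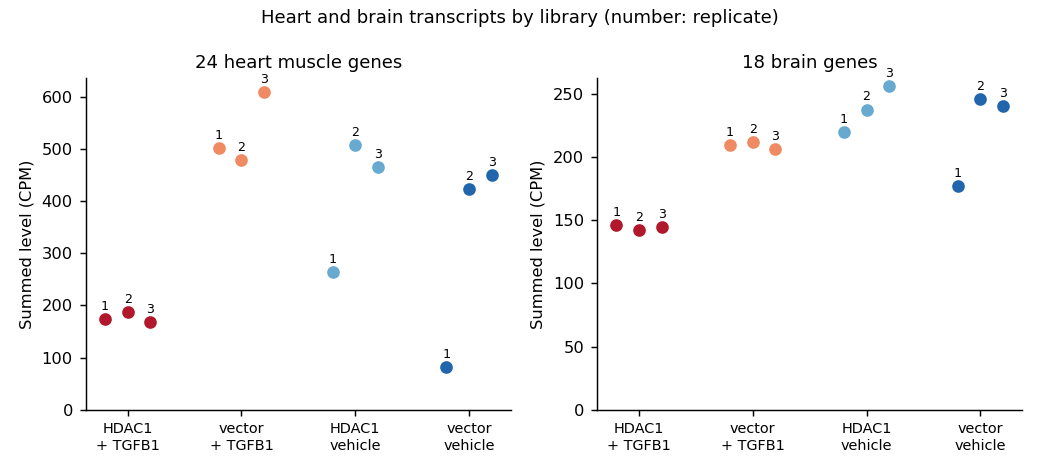
Summed level in CPM of 24 heart muscle genes (left) and 18 brain genes (right) in each library, by group, with the replicate number beside each point. Vector vehicle replicate 1 lies below the other 2 libraries of its group, at 81.4 CPM for heart genes, while the 3 libraries with HDAC1 plus TGFB1 lie between 167.9 and 187.9 CPM.

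The targeted gene was examined first. Hdac1 (ENSRNOG00000009568) had 501, 416 and 474 CPM with HDAC1 plus TGFB1, against 211.8, 205 and 212.4 CPM in vector vehicle. All 3 libraries with the plasmid were above all 3 without it. The level was 2.21-fold higher (log2 fold change 1.14, SE 0.081, edgeR adjusted p = 2.07e-10). Hdac1l (ENSRNOG00000013695), annotated by its name as an Hdac1-like rat gene, had 1211, 802 and 1256 CPM with HDAC1 plus TGFB1, against 0.530, 15.1 and 9.23 CPM in vector vehicle. It showed the largest rise of all genes named here (log2 fold change 7.07, SE 0.66, edgeR adjusted p = 1.81e-05). Its vector vehicle level was again lowest in replicate 1. The sum of both genes averaged 1553 CPM with HDAC1 plus TGFB1 and 218 CPM in vector vehicle, a ratio of 7.13. For each gene an exact two-sided permutation test over the 6 libraries gave p = 0.1, and no smaller p is possible with 3 libraries a group. Since the plasmid carries human sequence, the share of its reads counted to each of these genes is uncertain, and neither value is a level of the rat transcript alone.

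Over all genes tested, 8310 (56.9%) were called at an edgeR adjusted p under 0.05, of which 4190 (28.7%) were higher and 4120 (28.2%) lower with HDAC1 plus TGFB1. Among the 10422 genes with a mean of at least 5 CPM, 6840 (65.6%) were called, of which 3673 (35.2%) were higher and 3167 (30.4%) lower. Each list count below is to be read beside these shares. Changes of at least 2-fold were fewer and more often falls: 358 (3.44%) of these genes were higher and 499 (4.79%) lower by that much, beside 707 (4.84%) higher and 1147 (7.86%) lower over all genes tested. The mean was reached in both groups by 10096 genes, only with HDAC1 plus TGFB1 by 123 and only in vector vehicle by 203. The median log2 fold change was 0.03 over the 10422 genes and -0.03 over all genes tested. Groups without overlap were common: of all genes tested, 4706 (32.2%) had all 3 libraries with HDAC1 plus TGFB1 higher and 4525 (31%) all 3 lower. Most list members named below were picked for the smallest adjusted p in their list. Their lack of overlap between groups is therefore a description and no separate support. The labels do not say whether replicates were separate cultures, so p-values measure the spread between libraries. In RNA from whole cultures, fewer cells of a kind and less RNA per cell cannot be told apart.

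The 15 largest rises spanned secreted and surface proteins of the matrix, receptors of the interleukin-1 family and signalling enzymes. They were chosen for their net change and for groups that do not overlap, as were the 15 largest falls, so their values and the separation of the groups are a description. F13a1, the A subunit of coagulation factor XIII, a crosslinking transglutaminase, had 13.2, 12.3 and 10.3 CPM with HDAC1 plus TGFB1, against 0.0442, 0.159 and 0.215 CPM in vector vehicle (log2 fold change 6.33). Its vector vehicle level rests on 10 counts over 3 libraries. Srpx2, a secreted ligand of the urokinase receptor, had 21.2, 23.2 and 23.9 CPM with HDAC1 plus TGFB1, against 0.133, 0.583 and 0.465 CPM in vector vehicle (log2 fold change 5.85). Both were under 1 CPM in all 3 vector vehicle libraries.

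Lamb3, the beta chain of the epithelial laminin-332, had 342, 384 and 358 CPM with HDAC1 plus TGFB1, against 10.5, 11.6 and 12.4 CPM in vector vehicle, a 31.4-fold difference (log2 fold change 4.97, SE 0.082, edgeR adjusted p = 2.14e-20). Itga2, the alpha subunit of a collagen-binding integrin, had 167, 134 and 152 CPM with HDAC1 plus TGFB1, against 14.1, 16.6 and 16.6 CPM in vector vehicle (log2 fold change 3.26). Tnfaip6, a secreted protein that attaches heavy chains to hyaluronan, had 66.5, 60.0 and 65.4 CPM with HDAC1 plus TGFB1, against 4.95, 4.29 and 5.76 CPM in vector vehicle (log2 fold change 3.66). In all 3 genes the lowest library with HDAC1 plus TGFB1 was far above the highest in vector vehicle.

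Receptors, enzymes and a few genes of other roles were among the other rises. Pappa, the protease that cuts the binding protein IGFBP4 and so frees insulin-like growth factors, had 19.2, 16.7 and 18.4 CPM with HDAC1 plus TGFB1, against 0.530, 0.477 and 0.465 CPM in vector vehicle (log2 fold change 5.19). Il1rl1, the receptor of interleukin-33, had 219, 162 and 211 CPM with HDAC1 plus TGFB1, against 8.39, 7.63 and 9.55 CPM in vector vehicle (log2 fold change 4.52). Il1rl2, the receptor of interleukin-36, also rose, by 3.80 on the log2 scale. Enpp1, an enzyme that makes pyrophosphate from ATP outside the cell, had 543, 548 and 536 CPM with HDAC1 plus TGFB1, against 35.6, 37.6 and 40.9 CPM in vector vehicle (log2 fold change 3.83, SE 0.071, edgeR adjusted p = 1.13e-19). The 3 replicates of each group lay close together for Enpp1 and well apart between groups. The remaining rises were Trpm2, a calcium-permeable channel (4.78), Lmcd1, a LIM-domain transcription cofactor (4.49), Bmpr1b, a type I receptor of bone morphogenetic proteins (3.77), Inpp4b, a phosphoinositide phosphatase (3.65), and C1h10orf90 (3.47). Of the 15, 9 averaged under 5 CPM in vector vehicle. The last gene inside the limit of 15 was Itga2 (3.26) and the next outside it was Ccbe1 (3.21).

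**Figure D2:**
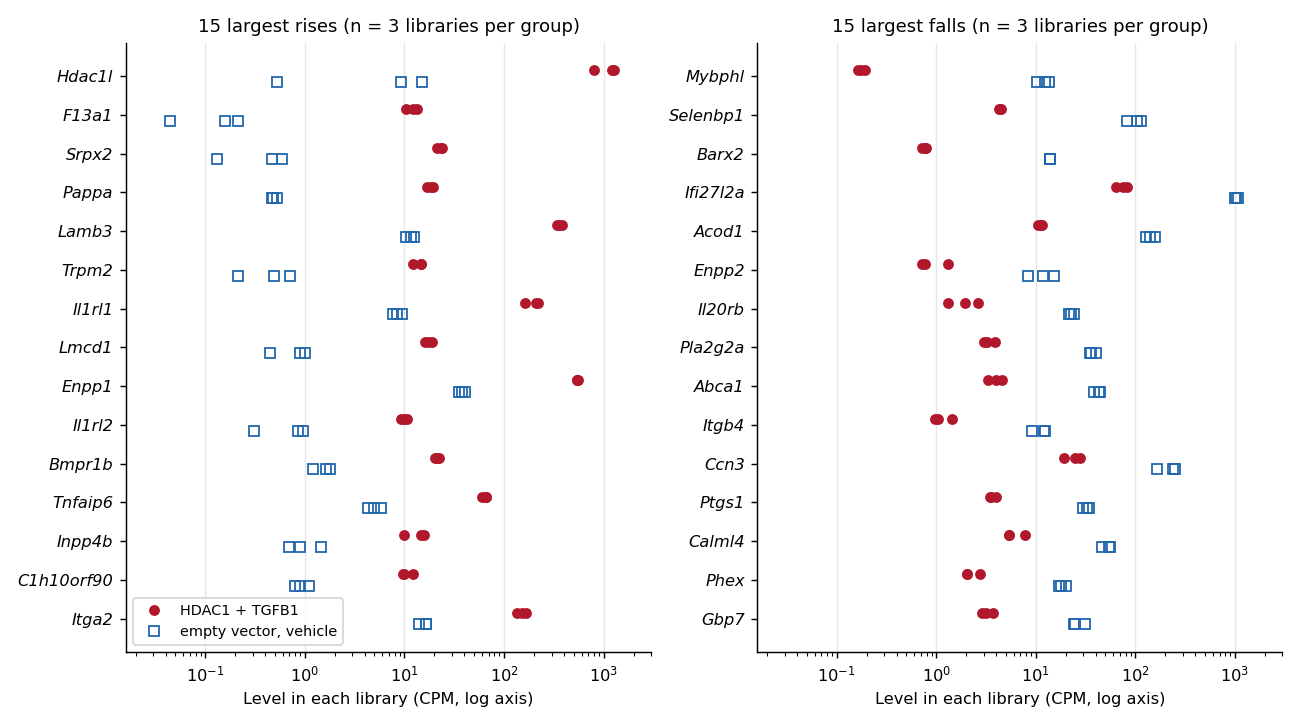
Level in CPM, on a log axis, of the 15 genes with the largest rise (left) and the 15 with the largest fall (right) in each of the 3 libraries with HDAC1 plus TGFB1 (filled circles) and the 3 vector vehicle libraries (open squares). The genes were chosen so that the circles and squares do not overlap, and the distance between them is widest for Hdac1l among the rises and Mybphl among the falls.

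The 15 largest falls held genes of lipid handling, interferon responses, cytokine reception and adhesion. Mybphl, a relative of muscle myosin-binding proteins, fell most: it had 0.166, 0.195 and 0.177 CPM with HDAC1 plus TGFB1, against 13.4, 12.3 and 10.3 CPM in vector vehicle (log2 fold change -6.02, SE 0.26, edgeR adjusted p = 1.09e-13). Its level with HDAC1 plus TGFB1 rests on 12 counts over 3 libraries. Unlike the heart genes above, it was highest in replicate 1 among the vector vehicle libraries. Selenbp1, a selenium-binding methanethiol oxidase, had 4.52, 4.32 and 4.33 CPM with HDAC1 plus TGFB1, against 104.6, 115 and 82.4 CPM in vector vehicle (log2 fold change -4.52). Barx2, a homeobox transcription factor, had 0.717, 0.778 and 0.795 CPM with HDAC1 plus TGFB1, against 14.0, 13.8 and 13.9 CPM in vector vehicle (log2 fold change -4.17). For these 3 genes every library with HDAC1 plus TGFB1 was many times below every vector vehicle library.

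Genes of inflammation and lipid mediators followed. Ifi27l2a, an interferon-induced gene, had 64.5, 83.1 and 75.1 CPM with HDAC1 plus TGFB1, against 1079.8, 1002 and 1028 CPM in vector vehicle (log2 fold change -3.80). Acod1, the enzyme that makes itaconate in activated macrophages, had 10.5, 11.4 and 11.5 CPM with HDAC1 plus TGFB1, against 140.4, 159 and 129 CPM in vector vehicle (log2 fold change -3.68). Abca1, the transporter that exports cholesterol from the cell, had 4.58, 3.35 and 4.02 CPM with HDAC1 plus TGFB1, against 44.6, 43.5 and 38.1 CPM in vector vehicle (log2 fold change -3.41). For all 3 the groups were separate, and every vector vehicle library was several times higher. Enpp2 (autotaxin), which makes lysophosphatidic acid, fell by 3.62 on the log2 scale, in contrast to its relative Enpp1 above. Pla2g2a, a secreted phospholipase, fell by 3.44, and Ptgs1, the constitutive cyclooxygenase, fell by 3.13.

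Ccn3, a matricellular protein, had 19.1, 27.8 and 24.7 CPM with HDAC1 plus TGFB1, against 236, 250.3 and 166 CPM in vector vehicle (log2 fold change -3.17, SE 0.25, edgeR adjusted p = 3.33e-06). The other falls were Il20rb, a receptor subunit for cytokines of the interleukin-20 family (-3.51), Itgb4, the beta subunit of a laminin-332 receptor (-3.27), Calml4, a calmodulin-like gene (-3.06), Phex, a membrane peptidase of phosphate balance (-3.04), and Gbp7, a guanylate-binding protein (-3.04). Of the 15 falls, 11 averaged under 5 CPM with HDAC1 plus TGFB1. Gbp7 was the last inside the limit, and Ephx1, an epoxide hydrolase, the next outside it (-3.02). All 30 genes were also called without vector vehicle replicate 1, but their selection by size and separation made this likely, so it is no separate support.

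Collagens moved in both directions. Of 20 tested, 9 rose and 7 fell, against 28.7% and 28.2% of all genes tested, and the median of their log2 fold changes was 0.03, with its sign turned by upper-quartile scaling (-0.03). Col3a1, the fibrillar collagen of early scars, had 569.6, 716 and 646 CPM with HDAC1 plus TGFB1, against 296, 266 and 229.8 CPM in vector vehicle (log2 fold change 1.29, SE 0.20, edgeR adjusted p = 0.000424). All 3 libraries with HDAC1 plus TGFB1 were higher. The chains of type I collagen gave no call: Col1a1 had 3518, 4841 and 4058 CPM with HDAC1 plus TGFB1, against 5727, 5145 and 4726 CPM in vector vehicle (log2 fold change -0.33, edgeR adjusted p = 0.0604), and the groups overlapped. Col1a2 had 2491, 3232 and 2816 CPM with HDAC1 plus TGFB1, against 3033, 2811 and 2569 CPM in vector vehicle (log2 fold change 0.02, edgeR adjusted p = 0.886). Col1a1 was called lower under 3 of the processing alternatives and without HDAC1 plus TGFB1 replicate 2 (log2 fold change -0.48, edgeR adjusted p = 0.0068).

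Col5a2, which joins type I fibrils, rose by 1.17 on the log2 scale and Col7a1, the anchoring fibril collagen, by 4.11, the second from a vector vehicle level under 1 CPM and a mean below 5 CPM. Col14a1, a fibril-associated collagen, had 3.03, 2.69 and 3.13 CPM with HDAC1 plus TGFB1, against 18.2, 19.0 and 16.7 CPM in vector vehicle (log2 fold change -2.61), and Col4a5, a basement membrane chain, fell by 1.40. The enzymes that modify and crosslink collagen were more often lower: of 25 tested, 5 rose (20%) and 14 fell (56%), with a median of -0.23. Of all genes tested, 28.7% rose and 28.2% fell. Without vector vehicle replicate 1 the falls in this list numbered 10 and the median was -0.16. Lox, a lysyl oxidase that starts crosslinks, had 339.7, 382 and 377 CPM with HDAC1 plus TGFB1, against 175, 167 and 151 CPM in vector vehicle (log2 fold change 1.16). Among its relatives, Loxl1 had 74.4, 88.5 and 83.5 CPM with HDAC1 plus TGFB1, against 300.4, 238 and 275 CPM in vector vehicle (log2 fold change -1.72), and Loxl3 also fell, by 2.03. Plod2, the lysyl hydroxylase of collagen telopeptides, rose by 1.20, and Pcolce, an enhancer of procollagen C-proteinase, fell by 0.82. The groups did not overlap for any of these lysyl oxidases.

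Among 24 other matrix glycoproteins, 10 rose and 9 fell. Fn1, fibronectin, had 6758, 7889 and 7391 CPM with HDAC1 plus TGFB1, against 4782, 4277 and 4336 CPM in vector vehicle (log2 fold change 0.72, SE 0.10, edgeR adjusted p = 5.37e-06). Postn, a matricellular protein of remodelling tissue, had 41.8, 40.1 and 36.9 CPM with HDAC1 plus TGFB1, against 6.85, 9.59 and 6.30 CPM in vector vehicle (log2 fold change 2.40). Fbln2 rose by 2.48, whereas Fbln5, a fibulin needed for elastic fibres, had 56.2, 61.3 and 62.6 CPM with HDAC1 plus TGFB1, against 264, 253 and 232 CPM in vector vehicle (log2 fold change -2.06). The fibulin genes thus differed in direction while each separated the groups. Of 14 basement membrane genes 7 rose and 4 fell, with Lama3, the alpha partner of Lamb3, at 2.13 and Lamb2 at -1.26. In hyaluronan metabolism 5 of 9 genes rose and 3 fell. Has2, the main hyaluronan synthase of fibroblasts, had 188, 151 and 162 CPM with HDAC1 plus TGFB1, against 17.8, 20.2 and 17.3 CPM in vector vehicle (log2 fold change 3.18), and Hyal1, a hyaluronidase, was among the falls.

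Of 16 integrin genes, 5 rose (31.2%, near the 28.7% of all genes tested) and 7 fell (43.8%). The collagen receptors Itga1 (2.08) and Itga2 rose, as did their common partner Itgb1 (0.76), while Itga3, the alpha subunit of a laminin receptor, had 225, 245 and 238 CPM with HDAC1 plus TGFB1, against 752, 625 and 732 CPM in vector vehicle (log2 fold change -1.57). Proteases and their inhibitors were split evenly, with 9 of 24 higher and 9 lower (37.5% each), against 28.7% and 28.2% of all genes tested. Of the 24, 20 had a mean of at least 5 CPM, and of all genes with that mean 35.2% were higher and 30.4% lower. Timp3, a metalloproteinase inhibitor, had 158, 160.3 and 161 CPM with HDAC1 plus TGFB1, against 68.8, 63.2 and 70.4 CPM in vector vehicle (log2 fold change 1.24, edgeR adjusted p = 1.38e-12), and the metalloproteinase Mmp28 fell by 1.59.

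Of 19 contractile genes, 9 rose and 4 fell, with a median of 0.21. Acta2, the smooth muscle actin that marks myofibroblasts, had 15.3, 16.9 and 15.9 CPM with HDAC1 plus TGFB1, against 3.45, 4.08 and 3.51 CPM in vector vehicle (log2 fold change 2.13, SE 0.13, edgeR adjusted p = 2.53e-11). It separated the groups but stayed under 17 CPM in each of the 6 libraries. Tpm1, a tropomyosin, had 499, 517 and 491 CPM with HDAC1 plus TGFB1, against 274, 335 and 314 CPM in vector vehicle (log2 fold change 0.71). Myh11, the smooth muscle myosin heavy chain, had 4.47, 3.85 and 4.72 CPM with HDAC1 plus TGFB1, against 19.9, 23.1 and 22.4 CPM in vector vehicle (log2 fold change -2.33).

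In the TGFB1 pathway itself, feedback genes were mostly higher and ligand and receptor genes were mixed. Of 12 ligand and receptor genes, 5 rose and 4 fell. Among ligands, Tgfb1 had 142, 170.4 and 161 CPM with HDAC1 plus TGFB1, against 112, 100.9 and 102 CPM in vector vehicle (log2 fold change 0.59, edgeR adjusted p = 3.90e-07), and Tgfb3 rose by 1.11. Among receptors, Tgfbr2 had 69.7, 78.8 and 76.3 CPM with HDAC1 plus TGFB1, against 141, 119.8 and 137 CPM in vector vehicle (log2 fold change -0.82), and the coreceptor Tgfbr3 fell by 1.13. Of 15 SMAD and feedback genes, 10 rose and 3 fell, with a median of 0.34. Smad7, the inhibitory SMAD that the pathway induces, had 87.8, 93.9 and 97.2 CPM with HDAC1 plus TGFB1, against 38.9, 31.6 and 39.1 CPM in vector vehicle (log2 fold change 1.34, SE 0.091, edgeR adjusted p = 1.18e-10). The SMAD-binding repressors Pmepa1 (1.87) and Skil (1.13) rose too, and the decoy receptor Bambi fell by 1.18. Each of these genes had no overlap between groups.

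Neighbouring growth factor pathways were mixed. Inhba, the activin A subunit, had 276, 237 and 268 CPM with HDAC1 plus TGFB1, against 65.8, 61.9 and 63.3 CPM in vector vehicle (log2 fold change 2.03), whereas Inhbb, the activin B subunit, had 8.06, 8.21 and 8.08 CPM with HDAC1 plus TGFB1, against 29.9, 27.0 and 26.6 CPM in vector vehicle (log2 fold change -1.78). Activin, bone morphogenetic protein and ID genes together counted 6 rises and 6 falls of 17 (35.3% each), against 28.7% and 28.2% of all genes tested. Of the 17, 14 had a mean of at least 5 CPM, and of all genes with that mean 35.2% rose and 30.4% fell. In the list of CCN genes and YAP targets, 6 of 14 rose and 4 fell, and Ccn2 (connective tissue growth factor) had 680.2, 740.3 and 699 CPM with HDAC1 plus TGFB1, against 302, 327 and 235 CPM in vector vehicle (log2 fold change 1.30, SE 0.11, edgeR adjusted p = 1.67e-08). Of 21 WNT genes 9 rose, among them the transcription factor Lef1 (1.68), and 9 fell, among them the receptor Fzd7 (-1.53). The receptor Egfr rose, with 98.0, 108 and 104 CPM with HDAC1 plus TGFB1, against 16.04, 18.9 and 17.1 CPM in vector vehicle (log2 fold change 2.57), and Pdgfra, a receptor typical of resting fibroblasts, fell by 1.03.

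Interferon-stimulated genes fell almost without exception. Of 39 tested, 38 were lower and 0 higher, and the median of the log2 fold changes was -0.84, against -0.03 over all genes. Together they took 1.064% to 1.177% of the counts with HDAC1 plus TGFB1, against 2.132% to 2.237% in vector vehicle. The promoters of 4 members with the deepest falls among those that hold the interferon-stimulated response element are printed here, since this motif was common in the list. They come from RefSeq, assembly GRCr8, read from 5′ to 3′ on the strand of the gene over the 250 bases before its start, with the match to the letters GAAA, any 2 bases and GAAA again, searched on both strands, in capitals. The capitals begin 31 bases before the start of Gbp2 at chr2:234005477-234005726 (plus strand), 56 bases before Gbp5 at chr2:233910749-233910998 (plus strand), 10 bases before Gbp4 at chr2:233978236-233978485 (plus strand) and 147 bases before Rsad2 at chr6:48788121-48788370 (minus strand).
Gbp2: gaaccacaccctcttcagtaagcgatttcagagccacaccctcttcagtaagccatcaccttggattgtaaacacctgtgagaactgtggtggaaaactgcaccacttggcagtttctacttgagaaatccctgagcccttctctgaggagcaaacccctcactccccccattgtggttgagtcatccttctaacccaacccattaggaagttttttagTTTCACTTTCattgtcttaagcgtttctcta
Gbp5: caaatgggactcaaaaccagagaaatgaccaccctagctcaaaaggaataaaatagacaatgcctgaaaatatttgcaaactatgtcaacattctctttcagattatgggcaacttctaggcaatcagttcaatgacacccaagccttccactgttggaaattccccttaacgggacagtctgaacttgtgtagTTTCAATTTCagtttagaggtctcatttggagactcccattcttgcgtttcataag
Gbp4: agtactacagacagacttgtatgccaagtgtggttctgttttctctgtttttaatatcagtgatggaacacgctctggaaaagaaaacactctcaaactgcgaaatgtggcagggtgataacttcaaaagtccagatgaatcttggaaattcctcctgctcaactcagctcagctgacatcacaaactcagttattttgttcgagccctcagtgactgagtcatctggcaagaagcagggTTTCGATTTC
Rsad2: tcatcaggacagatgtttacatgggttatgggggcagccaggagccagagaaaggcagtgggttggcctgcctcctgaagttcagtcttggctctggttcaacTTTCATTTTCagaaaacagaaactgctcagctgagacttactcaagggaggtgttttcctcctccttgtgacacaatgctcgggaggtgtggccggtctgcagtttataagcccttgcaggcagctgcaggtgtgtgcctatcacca

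In each of these promoters the match lies on the strand opposite to the gene, so the capitals read TTTC, 2 further bases and TTTC. Of 29 list members found in the promoter table, 20 (69.0%) held a match, against 902 of 27456 promoters (3.29%) in all. A match is a description of the letters and was not tested as a site of binding. Gbp2, a guanylate-binding protein, had 108, 126 and 108 CPM with HDAC1 plus TGFB1, against 641, 686 and 591 CPM in vector vehicle (log2 fold change -2.48, SE 0.094, edgeR adjusted p = 3.20e-14). Gbp5 had 25.2, 24.98 and 22.9 CPM with HDAC1 plus TGFB1, against 101.2, 106 and 88.3 CPM in vector vehicle (log2 fold change -2.02). For both genes all vector vehicle libraries were several times higher. Gbp4 and Rsad2 were picked for their promoters after their values had been seen. Gbp4 fell by 1.94 on the log2 scale, and Rsad2, whose product viperin blocks viral replication, had 389, 375 and 366 CPM with HDAC1 plus TGFB1, against 1097, 1116 and 1048 CPM in vector vehicle. Guanylate-binding protein genes are near copies of each other, and how reads shared among them were counted is not given in the sources used here, so their single values are uncertain. Oasl, a member of the oligoadenylate synthetase family, fell by 1.74, Herc6, a ubiquitin ligase of the same response, by 1.71, and Cmpk2, a nucleotide kinase, by 1.52. The single list member without a call was Eif2ak2, the kinase activated by double-stranded RNA (-0.07).

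Genes for interferons and for the IRF and STAT factors of this response were mostly lower too. Of 20 tested, 16 were lower and 2 higher, with a median of -0.54. Irf7, the factor that amplifies interferon production, had 1086, 1326 and 1143 CPM with HDAC1 plus TGFB1, against 2897, 2852 and 2748 CPM in vector vehicle (log2 fold change -1.26, SE 0.087, edgeR adjusted p = 1.35e-10). Stat2, a subunit of the factor that binds interferon-stimulated response elements, had 221, 249 and 223 CPM with HDAC1 plus TGFB1, against 509, 491 and 512 CPM in vector vehicle (log2 fold change -1.12). The replicates of Irf7 and Stat2 did not overlap between groups. The 2 genes that rose were Irf8 and the interferon gene Ifnb1. Irf8, a factor known from myeloid cells, had 67.7, 64.3 and 67.6 CPM with HDAC1 plus TGFB1, against 14.0, 13.8 and 14.1 CPM in vector vehicle (log2 fold change 2.25). Ifnb1, interferon beta, had 14.1, 11.8 and 11.7 CPM with HDAC1 plus TGFB1, against 5.65, 6.20 and 5.29 CPM in vector vehicle (log2 fold change 1.13, edgeR adjusted p = 3.26e-07), opposite to the stimulated genes.

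Of the genes of antigen presentation, 10 of 11 in the MHC class I route were lower and 0 higher, with a median of -0.67. B2m, the light chain of class I molecules, had 1559.9, 1566 and 1495 CPM with HDAC1 plus TGFB1, against 2589, 2675 and 2462 CPM in vector vehicle (log2 fold change -0.74), and Nlrc5, the transactivator of class I genes, fell by 1.07. Of 13 complement and acute-phase genes, 8 fell and 2 rose, with a median of -1.49. C1s, a protease of the classical complement pathway, had 91.0, 98.5 and 86.4 CPM with HDAC1 plus TGFB1, against 644, 674 and 547 CPM in vector vehicle (log2 fold change -2.76, SE 0.13, edgeR adjusted p = 3.24e-10). Its partner C1r fell by 1.81. In both lists every gene named had separate groups, as is likely for genes picked by their smallest adjusted p.

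Cytokine and NF-kB genes were less uniform, with 15 of 30 lower and 7 higher. Cxcl10, a chemokine that draws T cells, had 389.7, 331 and 352 CPM with HDAC1 plus TGFB1, against 1577, 1715 and 1459.6 CPM in vector vehicle (log2 fold change -2.15, SE 0.079, edgeR adjusted p = 8.99e-15). Cxcl12, the ligand of CXCR4, fell by 2.63, and the adhesion molecules Vcam1 and Icam1 by 1.37 and 1.19. Ptgs2, the inducible cyclooxygenase, had 78.7, 54.8 and 64.9 CPM with HDAC1 plus TGFB1, against 18.6, 15.3 and 14.95 CPM in vector vehicle (log2 fold change 2.02), opposite in direction to Ptgs1. Markers of leukocytes moved with these falls in part. Of 11 listed, 4 were tested, and their summed level was 154.2, 166.8 and 151.9 CPM with HDAC1 plus TGFB1, against 172, 167.9 and 169.7 CPM in vector vehicle. Mpeg1 had 2.59, 3.15 and 2.83 CPM with HDAC1 plus TGFB1, against 18.3, 16.6 and 17.2 CPM in vector vehicle (log2 fold change -2.59), and Cd68 fell by 2.08. Most of the sum was Cd14, at 148, 161 and 147 CPM with HDAC1 plus TGFB1, against 143, 142 and 142 CPM in vector vehicle, with no call. The other 7 markers, Ptprc among them, were not found by symbol, and 1909 of the genes tested had no symbol. The part of such cells in the falls was not tested.

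**Figure D3:**
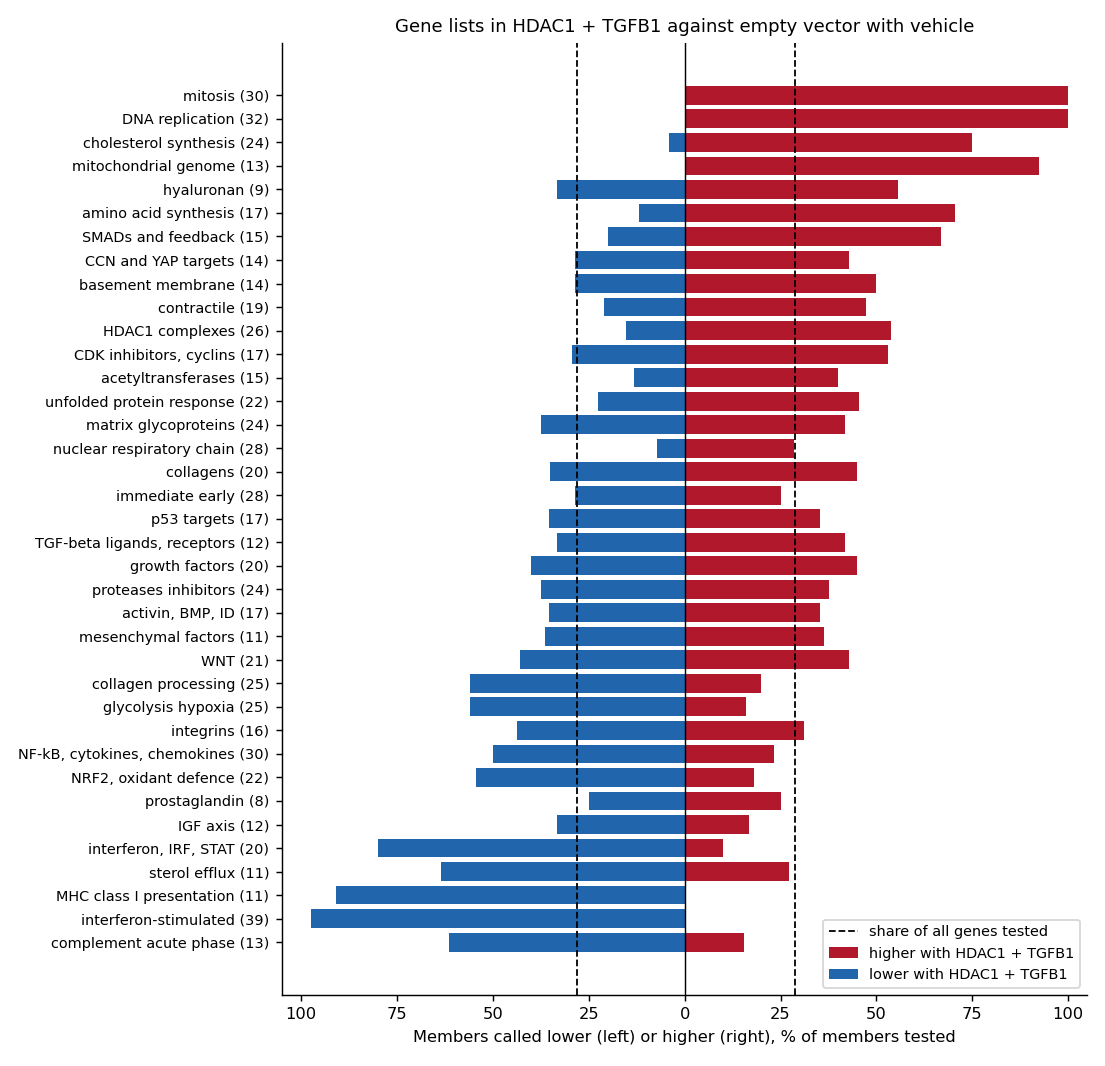
Share of the tested members of each gene list called higher (right, red) or lower (left, blue) with HDAC1 plus TGFB1 than in vector vehicle, in percent, with the number tested in brackets. The lists run by median log2 fold change, highest at the top, and the dashed lines mark 28.7% higher and 28.2% lower over all genes tested. Mitosis and DNA replication reach 100% higher, and the interferon-stimulated list reaches 97.4% lower.

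Cell division genes rose as complete lists. All 30 mitosis genes and all 32 DNA replication genes were higher, with medians of 0.80 and 0.71, against 28.7% of all genes tested. Mitosis genes took 0.435% to 0.478% of the counts with HDAC1 plus TGFB1, against 0.258% to 0.284% in vector vehicle. Promoters of the member of each list with the largest rise among those holding an E2F motif are printed, because E2F factors are known regulators of replication genes. They come from the same RefSeq table and run from 5′ to 3′ on the strand of the gene, with a match to TTTCCCGC, TTTGGCGC or TTTCGCGC on either strand in capitals. The matches begin 233 and 52 bases before the start of Mcm7 at chr12:22163179-22163428 (minus strand) and 133 bases before Cdk1 at chr20:19265043-19265292 (plus strand).
Mcm7: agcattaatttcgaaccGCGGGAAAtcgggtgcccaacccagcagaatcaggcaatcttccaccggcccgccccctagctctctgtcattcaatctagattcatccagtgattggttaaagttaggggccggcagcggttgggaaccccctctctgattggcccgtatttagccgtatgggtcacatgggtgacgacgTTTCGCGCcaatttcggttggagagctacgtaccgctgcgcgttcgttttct
Cdk1: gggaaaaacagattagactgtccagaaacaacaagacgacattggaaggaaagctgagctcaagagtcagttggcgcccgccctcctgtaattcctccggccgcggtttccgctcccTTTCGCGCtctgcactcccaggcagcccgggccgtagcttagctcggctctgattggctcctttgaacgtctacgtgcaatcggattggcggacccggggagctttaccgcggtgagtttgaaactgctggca

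Such a motif stood in 8 of 27 replication promoters (29.6%) and 1 of 26 mitosis promoters (3.85%), against 1.49% of all promoters. Mcm7, a subunit of the replicative helicase, had 265, 277 and 267 CPM with HDAC1 plus TGFB1, against 142, 124 and 148 CPM in vector vehicle (log2 fold change 0.97, SE 0.07, edgeR adjusted p = 2.67e-10). Cdk1, the kinase that starts mitosis and a gene picked for its promoter after its value had been seen, rose by 0.62. Kif11, a spindle motor, had 279.5, 250.2 and 255 CPM with HDAC1 plus TGFB1, against 104, 108 and 110.0 CPM in vector vehicle (log2 fold change 1.29, SE 0.066, edgeR adjusted p = 1.16e-12). Every library with HDAC1 plus TGFB1 was above every vector vehicle library for both Mcm7 and Kif11, as for all 62 list members. The same held for 32.2% of all genes tested. The replication factors Orc1 (1.39) and Cdc6 (1.20) and the cyclin Ccnb1 (1.19) had larger changes than their list medians.

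Among regulators of the cycle, 9 of 17 rose and 5 fell. Myc had 118, 117 and 123 CPM with HDAC1 plus TGFB1, against 45.7, 40.4 and 47.6 CPM in vector vehicle (log2 fold change 1.42, SE 0.08, edgeR adjusted p = 5.70e-12). Ccne2, a cyclin of S phase entry, rose by 1.13. Cdkn1b, the inhibitor p27, had 103, 107 and 108 CPM with HDAC1 plus TGFB1, against 179, 174 and 163 CPM in vector vehicle (log2 fold change -0.70). Cdkn1a, the inhibitor p21, had 158, 168 and 177 CPM with HDAC1 plus TGFB1, against 189.8, 168 and 189 CPM in vector vehicle (log2 fold change -0.12, edgeR adjusted p = 0.122). The groups were separate for Cdkn1b and overlapped for Cdkn1a. Cdkn1a was called lower with upper-quartile scaling (log2 fold change -0.18, edgeR adjusted p = 0.018), with genes of mean CPM of at least 5 (-0.16, edgeR adjusted p = 0.032) and without HDAC1 plus TGFB1 replicate 3 (-0.18, edgeR adjusted p = 0.048). Targets of p53 counted 6 of 17 higher and 6 lower (35.3% each). These shares were near the 35.2% and 30.4% of genes with a mean of at least 5 CPM, which all 17 had.

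Genes of cholesterol synthesis mostly rose, and genes of sterol efflux mostly fell. Of 24 cholesterol synthesis genes, 18 rose and 1 fell, with a median of 0.60. Msmo1, a sterol methyl oxidase, had 444, 510.4 and 429.9 CPM with HDAC1 plus TGFB1, against 159, 164 and 158 CPM in vector vehicle (log2 fold change 1.53, SE 0.086, edgeR adjusted p = 6.77e-12). Idi1 and Cyp51 of the same route rose by 1.32 and 1.24. The gene that fell, named after its value was seen, was Pmvk (-0.30). It was not called without vector vehicle replicate 1 or 2, and 3 genes of the list were called lower without HDAC1 plus TGFB1 replicate 2. Of 11 genes of sterol efflux and its control, 3 rose and 7 fell, led by Abca1 and by Mylip, a ubiquitin ligase that removes the LDL receptor (-1.85). Among amino acid synthesis genes 12 of 17 rose and 2 fell, and Shmt2, a mitochondrial enzyme of glycine synthesis, was among those that rose (1.03). The count of 2 falls became 1 when any single library of the 6 was left out. Glycolysis and hypoxia genes were lower in 14 of 25 and higher in 4, and Ndrg1, a gene of the hypoxia response, had 186, 186 and 188 CPM with HDAC1 plus TGFB1, against 629, 563 and 604 CPM in vector vehicle (log2 fold change -1.68). Oxidant defence genes counted 12 falls and 4 rises of 22, among the falls Sod2 (-1.11) and Cat (-1.15).

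Transcripts of the mitochondrial genome rose: 12 of 13 were higher and 0 lower, with a median of 0.52. They took 2.092% to 2.398% of the counts with HDAC1 plus TGFB1, against 1.769% to 1.867% in vector vehicle. Mt-cyb, the cytochrome b of complex III, had 1678, 1347 and 1574 CPM with HDAC1 plus TGFB1, against 897, 874 and 836 CPM in vector vehicle (log2 fold change 0.82). Of 28 nuclear genes of the respiratory chain, 8 were higher (28.6%) and 2 lower (7.14%), against 28.7% and 28.2% of all genes tested. All 28 had a mean of at least 5 CPM, and of genes with that mean 35.2% were higher and 30.4% lower. The 8 rises became 5 without HDAC1 plus TGFB1 replicate 1, and the 2 falls became 1 without its replicate 3 or without vector vehicle replicate 1 or 3. Cycs, cytochrome c, rose by 0.68. Subunits of the HDAC1 complexes were higher in 14 of 26 and lower in 4, a count of falls that was 2 without vector vehicle replicate 1. Hdac2, the close relative that shares these complexes, had 152, 140.4 and 138 CPM with HDAC1 plus TGFB1, against 80.9, 87.3 and 81.1 CPM in vector vehicle (log2 fold change 0.79, edgeR adjusted p = 1.09e-09), and the demethylase Kdm1a of CoREST rose by 0.60. Of 15 acetyltransferase and bromodomain genes 6 rose and 2 fell, the strongest fall named being Kat2b (-0.90).

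The values with each stimulus alone come from the other 6 libraries. Each single change was measured against the same 3 vector vehicle libraries as the net change, so the values below share their baseline and are set side by side only. TGFB1 with the empty vector gave calls for 14 of the 15 largest rises, where 25.9% of all genes were called higher, and for 15 of the 15 largest falls, where 25% were called lower. HDAC1 in vehicle gave calls in the same direction for 7 of the rises and 12 of the falls, where 6.64% of all genes were called higher and 7.32% lower. In 14 rises and all 15 falls the change with TGFB1 alone was the larger of the single changes. Hdac1l was the exception, at 0.19 on the log2 scale with TGFB1 alone and 7.18 with HDAC1 alone. For Lamb3 these values were 4.91 with TGFB1 alone and 0.35 with HDAC1 alone, for Enpp1 3.79 and 0.39, and for Abca1 -2.79 and -1.15.

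For some lists the medians of the log2 fold changes had one sign with both single stimuli. For the mitosis list the median was 0.61 with TGFB1 alone and 0.54 with HDAC1 alone. For the interferon-stimulated list the medians were -0.51 with TGFB1 alone and -0.25 with HDAC1 alone. The collagens had medians of opposite sign, 0.23 with TGFB1 alone and -0.28 with HDAC1 alone. Col1a2 was at 0.47 with TGFB1 alone (edgeR adjusted p = 0.00261) and -0.54 with HDAC1 alone (edgeR adjusted p = 0.00503). Ccn2 had 707 ± 30.7 CPM with HDAC1 plus TGFB1, 1150.1 ± 147 CPM with TGFB1 and the empty vector, 189 ± 11.3 CPM with HDAC1 in vehicle and 288 ± 47.8 CPM in vector vehicle (SD, n = 3 each). Irf7 had 1185 ± 126 CPM with HDAC1 plus TGFB1, 2045 ± 188 CPM with TGFB1 and the empty vector, 1739 ± 185 CPM with HDAC1 in vehicle and 2832 ± 76.4 CPM in vector vehicle. Mitochondrial transcripts had a median of 0.14 with TGFB1 alone and 0.30 with HDAC1 alone. Ifnb1 was at -0.05 with TGFB1 alone (edgeR adjusted p = 0.806) and at 1.05 with HDAC1 alone (edgeR adjusted p = 2.74e-05).

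**Figure D4:**
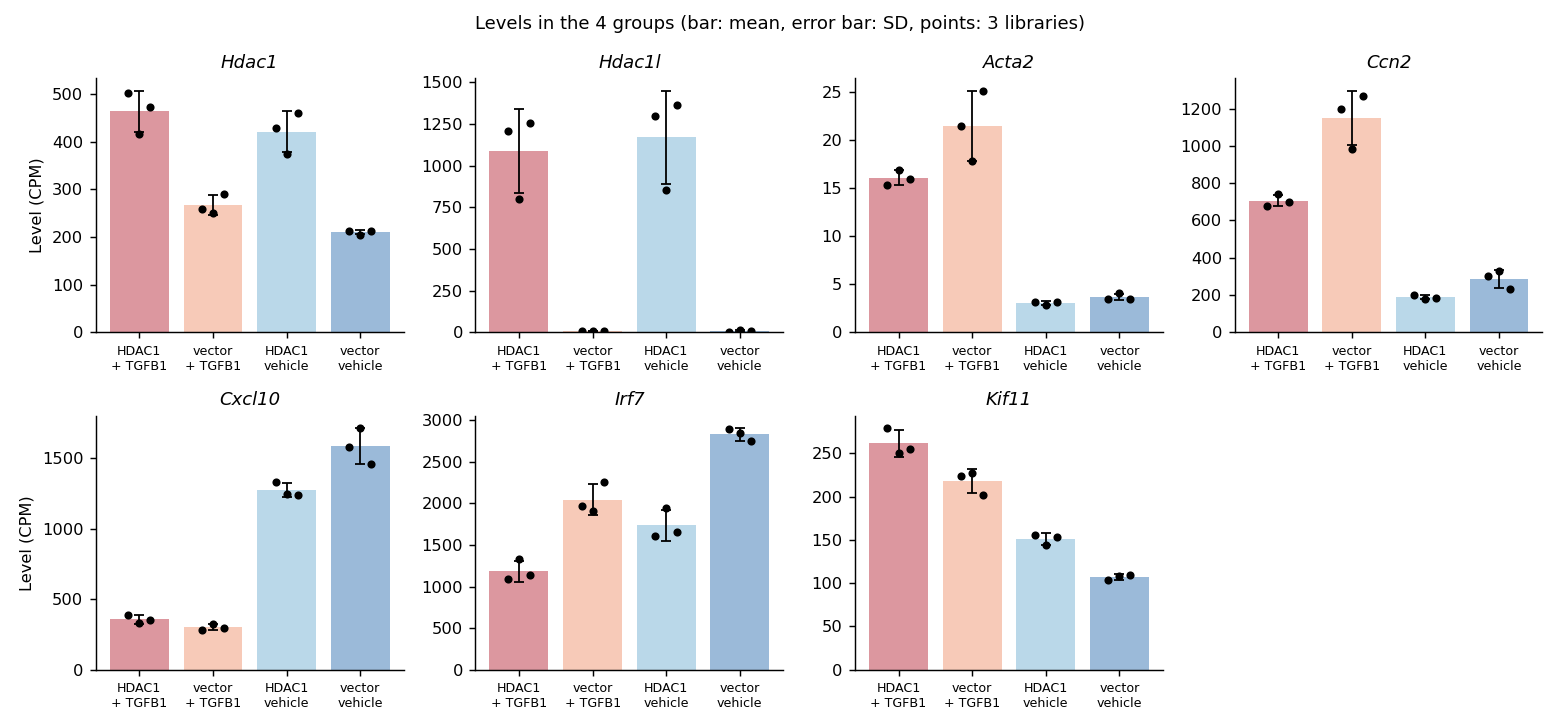
Level in CPM of 7 genes in the 4 groups of the study, with bars for the mean, error bars for the SD and points for the 3 libraries of each group. Acta2 and Ccn2 are high in both TGFB1 groups, Cxcl10 is low in both, and Irf7 is lowest and Kif11 highest with HDAC1 plus TGFB1.

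Whether the change with both stimuli differed from the sum of the single log2 changes was tested for each gene as an interaction. It was called for 70 of 14601 genes (0.479%), 20 above and 50 below the sum, and 1887 genes had an unadjusted p under 0.05. Among genes with a mean of at least 5 CPM, 20 were above and 36 below, and 13 of the 36 belonged to the mitosis or replication lists. These were 10 of 30 mitosis genes and 3 of 32 replication genes, where 0.342% of all genes tested were called below the sum. None of the 15 largest rises departed from the sum at this threshold, and of the falls only Mybphl did (-1.80, SE 0.40, edgeR adjusted p = 0.0460). The 24 heart muscle genes had a median departure of similar size, -1.98 (0 called), and the 18 brain genes one of -1.90 (1 called). Heart genes had medians of 0.76 with TGFB1 alone and 0.39 with HDAC1 alone, against -3.04 and -1.18 for Mybphl. The part of such transcripts in the departure of Mybphl was not tested. Ccnb1 lay below the sum, at -0.49 (SE 0.09, edgeR adjusted p = 0.0262), with single changes of 0.97 for TGFB1 and 0.70 for HDAC1. Cdkn1b lay above it, at 0.47 (SE 0.09, edgeR adjusted p = 0.0262), with single changes of -0.72 for TGFB1 and -0.45 for HDAC1, against -0.70 with both. A missed threshold does not show that the stimuli added up. The count of 70 was 3 without HDAC1 plus TGFB1 replicate 3, 5 without its replicate 1, 26 without its replicate 2, 14 without vector vehicle replicate 2 and 257 without vector vehicle replicate 3.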

How the data were processed

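Poly(A) RNA of 12 libraries was sequenced in 4 groups of 3. The authors deposited raw counts per gene, and a normalized signal that was checked to be each count column divided by 1 constant per library. That second table supplied gene symbols, and 1909 of the genes tested had none. Per the submitters' processing notes, Trim Galore 0.6.7, featureCounts (Subread 2.0.1) and DESeq2 1.44 were used, and the build named there is that of mouse although the identifiers are rat Ensembl genes. The aligner and the handling of reads shared between genes are not given in the sources used here. Groups follow the titles, since the treatment labels of TGFB1 libraries carry a running number and the design text describes TGFB1 treatment of the cells with no vehicle arm. The vehicle arm rests on the titles, the treatment labels and the labels' treatment protocol.

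Counts of 43360 genes were filtered with filterByExpr of edgeR 4.0.16 (R 4.3.3), which kept 14601 genes and at least 99.917% of the counts of the 6 libraries. A quasi-likelihood model with TMM scaling, 1 mean for each group and robust dispersion estimates was fitted to 12 libraries (8 residual degrees of freedom, biological coefficient of variation 7.61%). The fit was also run on counts simulated from its own estimates with few genes changed, which cannot check the scaling under a change as broad as this one. Tests were two-sided, with Benjamini-Hochberg adjustment over all genes tested and a threshold of 0.05. CPM were computed with edgeR from TMM-scaled library totals. Replicates of a group differed by more than sampling noise (chi-square per gene of 3.89 to 9.47 between pairs). Each library was counted as a replicate, but this difference cannot show that they were separate cultures. The SD between 3 libraries limits the precision of each value.

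Named genes were Hdac1 and Hdac1l, the 15 largest rises and falls among called genes with a symbol of their own, a mean of at least 5 CPM and no overlap between groups, up to 5 called members per list with the smallest adjusted p, and 14 genes taken in every case; a few of these genes are not reported here. The comparison, the 43 gene lists and this rule were chosen with earlier results of these data known. Lists are described by counts and medians without a set test. Same-numbered libraries of the groups compared did not deviate together and were not paired, though 3 libraries a group cannot show that no batch was shared. Alternatives were other scalings, DESeq2 1.42.0, other filters, a fit to 2 groups, a block for the replicate number, and fits without each library in turn.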

Additional observations from a re-analysis of the deposited data

Results flagged for a closer look

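The change with HDAC1 plus TGFB1 differed from the sum of the changes with each alone, by the edgeR interaction test, for 11 of the genes named. The departures below are log2 values, and a positive one means a level above the sum. Genes below the sum were Mybphl (-1.80, edgeR adjusted p = 0.0460), Ccnb1 (-0.49, edgeR adjusted p = 0.0262), Cdc6 (-0.44, edgeR adjusted p = 0.0418) and Bub1b, a spindle checkpoint kinase (-0.42, edgeR adjusted p = 0.0301). The departure of Mybphl was close in size to the median of the 24 heart muscle genes (-1.98). The 3 cell cycle genes were called higher with each stimulus alone. Genes above the sum were Tgfb3 (0.38), Cdkn1b (0.47), Cxcl10 (0.56), Inhba (0.59), the matrix protease Adamts12 (0.59), Inhbb (0.65) and the matricellular Ccn5 (0.77), with edgeR adjusted p between 0.0262 and 0.0399. Inhba was at 1.499 with TGFB1 alone and -0.05 with HDAC1 alone (edgeR adjusted p = 0.735), against 2.03 with both. Adamts12 was at 1.45 with TGFB1 alone and -0.68 with HDAC1 alone, against 1.36 with both. The number of such calls over all genes moved strongly with single libraries, as given below.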

How the results depend on the processing

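The net change gave 8310 calls as reported and 6951 to 8399 under the other scalings, tests and filters, with 7584 to 8033 when a library was left out. Upper-quartile scaling lowered the share of higher calls to 43.7%, against 50.4%. With a replicate block it gave 8074 calls and no named gene changed its call, but same-numbered libraries did not deviate together (correlations of -0.2, -0.237 and 0.116). Changes of at least 2-fold numbered 1854 (707 higher, 1147 lower) as reported, and 855 (316 higher, 539 lower) with only genes of mean CPM of at least 5, where fewer genes are tested. Departures from the sum numbered 70 as reported, 275 by DESeq2, 479 without a filter on low counts and 3 to 257 without a library, and the cause was not tested; a fit to 2 groups cannot give them. Col1a2 (0.02) was not called and changed sign with upper-quartile scaling (-0.038), with mean CPM of at least 5 (-0.017), and without vector vehicle replicate 3 or HDAC1 plus TGFB1 replicate 2, in a range of -0.10 to 0.088 over the fits without a library. Of 232 named genes, Erg, Tek, Grin1, Des and Myl4, all markers of other tissues, lost their call in 1 or more alternatives, and Cdkn1a and Col1a1 gained one as lower.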

Other observations

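In the insulin-like growth factor axis, where Pappa rose, 2 of 12 genes were higher and 4 lower. Igfbp4, the binding protein that Pappa cuts, had 7.50, 8.48 and 8.12 CPM with HDAC1 plus TGFB1, against 18.9, 19.2 and 18.1 CPM in vector vehicle (log2 fold change -1.21, edgeR adjusted p = 4.51e-09). Igfbp5 had 42.0, 52.5 and 43.4 CPM with HDAC1 plus TGFB1, against 14.1, 14.2 and 11.2 CPM in vector vehicle (log2 fold change 1.81, edgeR adjusted p = 1.16e-09). The groups did not overlap for either binding protein. Of 20 growth factor and receptor genes 9 rose and 8 fell, with Hbegf, a ligand of EGFR, at 1.98 on the log2 scale. Egfr itself also rose.

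Transcription factors of mesenchymal cells were split, with 4 of 11 higher and 4 lower (36.4% each), against 28.7% and 28.2% of all genes tested. Of the 11, 9 had a mean of at least 5 CPM, and of all genes with that mean 35.2% were higher and 30.4% lower. Snai2, a repressor of epithelial genes, had 11.4, 10.04 and 10.8 CPM with HDAC1 plus TGFB1, against 20.3, 20.7 and 18.6 CPM in vector vehicle (log2 fold change -0.89), Twist1 rose by 0.52, and Klf4 fell by 1.46. Immediate early genes and feedback inhibitors of the ERK pathway counted 7 rises (25%) and 8 falls (28.6%) of 28, shares close to the 28.7% and 28.2% of all genes tested. Spry1, such an inhibitor, had 4.03, 3.66 and 2.96 CPM with HDAC1 plus TGFB1, against 16.8, 14.0 and 15.03 CPM in vector vehicle (log2 fold change -2.11), while the phosphatase Dusp4 rose by 1.40. Prostaglandin genes counted 2 rises and 2 falls of 8 (25% each), likewise close to all genes. In the unfolded protein response 10 of 22 genes rose and 5 fell, and the rises numbered 6 without HDAC1 plus TGFB1 replicate 2. Hspa5, the main chaperone of the endoplasmic reticulum, had 1286, 1338 and 1222 CPM with HDAC1 plus TGFB1, against 966, 1030.0 and 887 CPM in vector vehicle (log2 fold change 0.42), and Ddit3, the factor CHOP, fell by 0.53.

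Among cell type markers, Pdgfrb, the receptor of PDGF-BB, had 22.1, 28.8 and 25.4 CPM with HDAC1 plus TGFB1, against 45.02, 40.5 and 37.7 CPM in vector vehicle (log2 fold change -0.68). Of 3 tubule epithelium markers 1 rose, and of 7 endothelial markers 2 rose and 2 fell.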
